A study of Mus musculus with 15 samples.

Results

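Interferon-stimulated genes were followed in mouse hematopoietic stem cells (HSCs), from which every blood lineage is renewed. The 45 genes described here were named individually, among the 46123 genes of the deposited tables, and their exon reads were compared across the 4 groups of the study. Reads were found for 43 of them, and all 43 passed the filter on low counts in every comparison. The other members, Mx1 and Mx2, which encode antiviral dynamin-like GTPases, had 0 reads in every library. The laboratory strain used here, C57BL/6, is known to carry a defective Mx1 gene, but why both genes had 0 reads was not tested.

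All cells were wild-type C57BL/6 bone marrow HSCs of mice aged 8 to 10 weeks, and each library was made from 100 sorted cells. Nifedipine (n = 4) and Control (n = 3) libraries came from HSCs that were cultured with or without nifedipine, a blocker of L-type calcium channels, and were sorted again among cells that had divided at most 3 times. 5-FU day4 libraries (n = 4) came from HSCs taken 4 days after 5-fluorouracil, an antimetabolite that kills dividing blood cells, and Untreated libraries (n = 4) from HSCs of mice without it. Neither drug dose nor culture time is stated in the labels. Because the sample labels do not say that replicates came from separate mice or cultures, p-values measure the spread between these libraries, which may be technical.

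Interferons are secreted proteins that bind receptors on the cell surface. The receptor-bound kinases JAK1, JAK2 and TYK2 then phosphorylate STAT factors, and a complex with STAT2 and IRF9 binds a promoter sequence called the interferon-stimulated response element, while other STAT complexes bind a gamma-activated site. The genes switched on in this way sense foreign nucleic acid, block viral replication or feed back on the pathway, and HSCs are known to express part of the set without infection and to respond to interferon by leaving dormancy.

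RefSeq promoter windows of the GRCm38.p6 assembly, from 250 bases before to 50 bases after a transcription start, were at hand for 33 of the 45 genes. The response element was searched on both strands as GAAA, any 2 bases and GAAA again, and it was present in 20 of the 33 genes (60.6%), against 1079 of 27025 genes with a window (3.99%). A shorter form that ends in GAA, and so lies within the longer one, was present in 22 of the 33 (66.7%), against 9.76% of all genes. The gamma-activated site, searched as TTC, any 3 bases and GAA, reads the same on both strands and was present in 11 of the 33 (33.3%), against 9.55% of all genes. A match describes the letters only. The stretches below belong to some of the genes whose levels or fold changes are given later. They are printed along the strand of the gene, with every response element match in capitals (GAAA blocks, or TTTC blocks where the match is on the other strand). Matches overlap in Isg15 (3 matches), Gbp3 and Bst2 (2 each), so that their capitals run on, and Ifit1 has 2 separate matches.
Ifit1, chr19:34640770-34640828, plus strand: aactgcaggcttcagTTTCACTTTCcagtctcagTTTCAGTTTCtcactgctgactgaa
Gbp2, chr3:142620589-142620628, plus strand: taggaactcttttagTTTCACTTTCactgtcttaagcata
Gbp3, chr3:142559984-142560029, plus strand: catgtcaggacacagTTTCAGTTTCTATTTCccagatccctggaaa
Gbp7, chr3:142530268-142530307, plus strand: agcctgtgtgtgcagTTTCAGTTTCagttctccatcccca
Oas3, chr5:120777710-120777749, minus strand: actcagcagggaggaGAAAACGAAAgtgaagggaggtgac
Trim30a, chr7:104465205-104465244, minus strand: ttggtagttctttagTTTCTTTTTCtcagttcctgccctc
Isg15, chr4:156200860-156200911, minus strand: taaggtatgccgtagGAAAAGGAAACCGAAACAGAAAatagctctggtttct
Igtp, chr11:58199507-58199546, plus strand: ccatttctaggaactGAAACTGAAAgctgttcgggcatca
Irgm2, chr11:58214898-58214937, plus strand: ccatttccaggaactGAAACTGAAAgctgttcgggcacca
Bst2, chr8:71537572-71537617, minus strand: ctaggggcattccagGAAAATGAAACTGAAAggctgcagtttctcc
Ifitm2, chr7:140955983-140956022, minus strand: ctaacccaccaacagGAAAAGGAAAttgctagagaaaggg
Gbp2, Gbp3 and Gbp7 lie within 1 stretch of chromosome 3, Ifit1, Ifit2 and Ifit3 within 1 of chromosome 19, and the 3 Ifitm genes within 1 of chromosome 7. Igtp and Irgm2 lie side by side on chromosome 11, with Irgm1 further off. Oas1a, Oas2 and Oas3 lie together on chromosome 5, with Oasl2 further off. Reads of such families, and of Trim30a with its relatives on chromosome 7, may be shared between near-identical copies, and the reads of Igtp were split between a pair of listed copies that were added up here. The first copy took 46.3% to 51.1% of them in 13 libraries, 82.1% in Nifedipine 4 and 77.9% in Untreated 1. The annotated spans of Dtx3l and Parp9 overlap, as do those of Ifit1 with Ifit1bl1, Eif2ak2 with Gm26637 and Ifi27 with Ifi27l2a. Since the libraries do not record the strand, reads in such overlaps may have been counted for either gene.

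Exon reads per library lay between 17582453 and 22372771 in Nifedipine, 20145079 and 26673045 in Control, 9775640 and 17397392 in 5-FU day4 and 6171730 and 16685285 in Untreated. Every pair of libraries of a group differed by more than sampling noise. The HSC marker list summed to 2883 to 3180 CPM in Nifedipine, 1788 to 1890 CPM in Control, 3891 to 4135 CPM in 5-FU day4 and 5354 to 5766 CPM in Untreated. Marker sums of other cells set some fresh libraries apart. Untreated 2 and Untreated 4 had 1689 and 1941 CPM on erythroid genes, against 137 and 157 CPM in Untreated 1 and Untreated 3. The endothelial and stromal list reached 552 CPM in 5-FU day4 4, against 191 to 246 CPM in its group, and 1816 CPM in Untreated 2, against 267 to 656 CPM in its group.

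The interferon-stimulated genes took 0.34% to 0.377% of exon reads in Nifedipine, 0.213% to 0.22% in Control, 0.367% to 0.472% in 5-FU day4 and 0.467% to 0.507% in Untreated libraries. Levels within a gene are given below as CPM, exon read counts scaled to the library total after TMM over all 15 libraries. To compare genes with each other within a group, the deposited RPKM values, which are counts per exon length and read total, were used. They are not on 1 scale across groups, since exon reads were a differing share of that read total. The share was 31.8% to 38.4% in Nifedipine, 35.5% to 38.9% in Control, 30% to 31.9% in 5-FU day4 and 25% to 26.3% in Untreated libraries. By RPKM, Ifitm3, a membrane protein that blocks viral entry, stood highest in every group, with 288 ± 50 in Nifedipine, 228 ± 4.39 in Control, 257 ± 19.6 in 5-FU day4 and 188 ± 21.6 in Untreated (SD, n = 4, 3, 4 and 4). Its relatives Ifitm1 and Ifitm2 came next in each group. The order below them was loose, since 38, 32, 38 and 37 of the 42 neighbouring pairs overlapped in Nifedipine, Control, 5-FU day4 and Untreated libraries. The lowest genes by RPKM were Ifit3 in Nifedipine (0.0638) and in Untreated (0.448), Gbp4 in Control (0.00278) and Isg15 in 5-FU day4 (0.44).

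**Figure D1:**
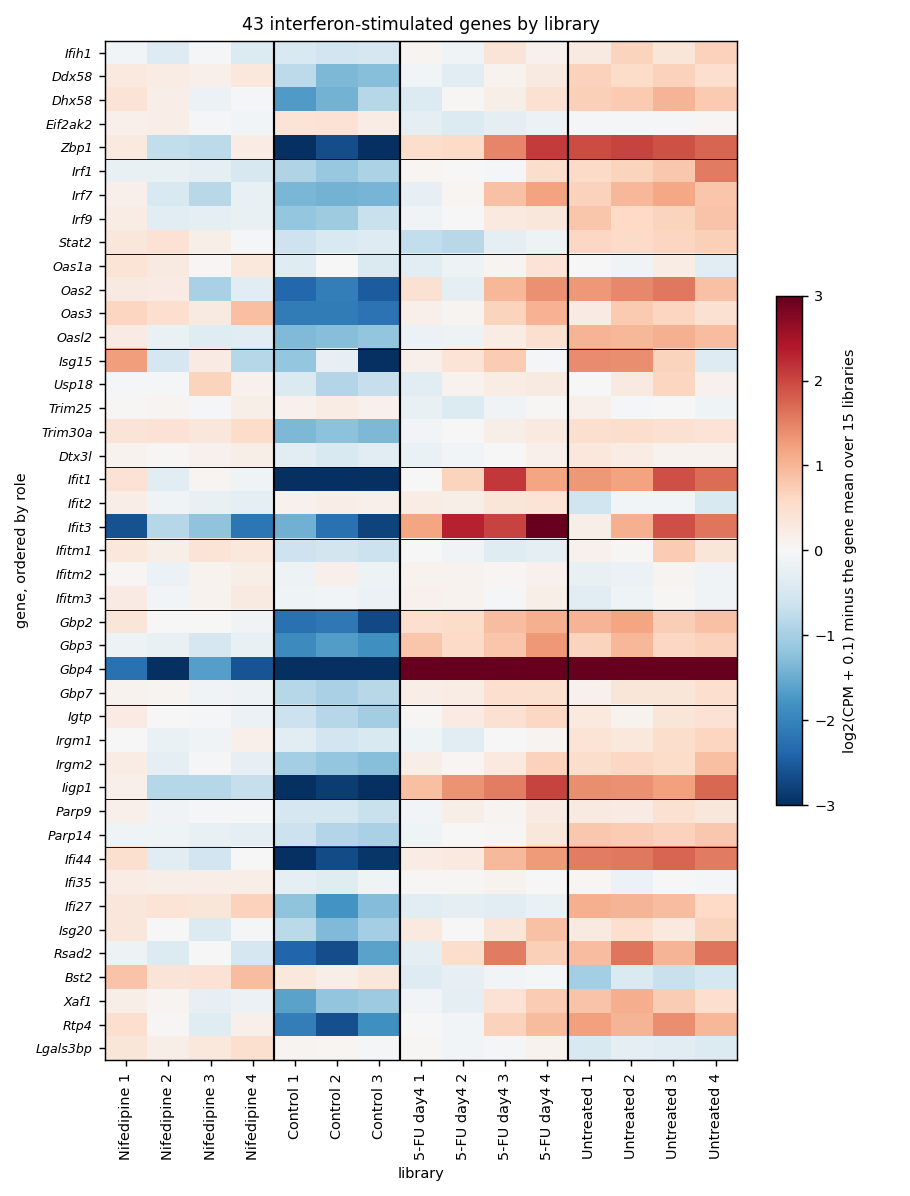
Each row is 1 of the 43 genes with reads, ordered by role, and each column a library; the colour is log2(CPM + 0.1) minus the mean of the gene over the 15 libraries. The 3 Control columns are the bluest (lowest) for most genes, and Eif2ak2, Trim25, Ifit2, Bst2 and Lgals3bp are the rows where Control was called higher than Untreated.

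In cultured HSCs, most interferon-stimulated genes were higher with nifedipine. Of the 43 tested, 37 rose and 2 fell, beside 25.8% of all 12807 tested genes called higher and 24.2% called lower (edgeR quasi-likelihood test, adjusted p of 0.05 or less over all genes). The log2 fold changes of the 43 had a median of 0.92, against 0.02 over all genes. In 20 of the 43 the log2 fold change was at least 1 and called, beside 7.29% of all genes. Groups did not overlap in 37 genes that were higher and 1 that was lower, beside 25.7% and 25.5% of all genes. Each library pools its cells, so fewer cells with a transcript and less of it per cell cannot be told apart.

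Sensors and transcription factors of the pathway rose in 8 of 9 genes. Ddx58, which encodes the RNA sensor RIG-I, had 128, 122, 116 and 130 CPM in Nifedipine libraries, against 60.8, 41.1 and 42.8 CPM in Control libraries. Its groups were well apart, and the log2 fold change was 1.36 ± 0.11 (SE; adjusted p = 2.13e-08). Dhx58, encoding the related LGP2, rose by 1.41 on the log2 scale, and Ifih1, encoding MDA5, rose by 0.28. Zbp1, a sensor of Z-form nucleic acid, rose (log2 fold change 4.54 ± 0.96), but its 4 Control reads were all in Control 2. Its log2 fold change was 8.12 without Control 2 and 3.91 without Control 1. Stat2, the STAT partner specific to type I and III interferon signalling, had 55.4, 58.5, 49 and 42.7 CPM in Nifedipine libraries, against 28.4, 31.4 and 33.4 CPM in Control libraries (log2 fold change 0.73 ± 0.12, adjusted p = 4.12e-05). Irf7, which amplifies interferon production, had 9.89, 6.49, 4.96 and 7.59 CPM in Nifedipine libraries, against 3.38, 3.27 and 3.33 CPM in Control libraries. Its Control libraries were almost level, and every Nifedipine library lay above them (log2 fold change 1.12 ± 0.27, adjusted p = 0.00238). Irf9, the DNA-binding partner of STAT2, rose by 0.82 and Irf1, a factor induced by interferon gamma, by 0.70.

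All 4 oligoadenylate synthetase genes rose. Their enzymes make the short adenylates that activate RNase L. Oas3 had 96.9, 88, 75.4 and 117 CPM in Nifedipine libraries, against 14.4, 14.5 and 13.4 CPM in Control libraries. The lowest Nifedipine library stood far above the highest Control library, and the log2 fold change was 2.74 ± 0.13 (adjusted p = 4.37e-11). Oas2 rose by 2.24, Oasl2 by 1.12 and Oas1a by 0.53 on the log2 scale.

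Among genes of ISG15 and ubiquitin, Trim30a, which encodes a TRIM protein known to dampen inflammatory signalling, had the smallest p of all 43 genes. It had 354, 370, 343 and 400 CPM in Nifedipine libraries, against 106, 116 and 106 CPM in Control libraries (log2 fold change 1.75 ± 0.07, adjusted p = 5.74e-12). Usp18, the protease that removes ISG15 and restrains the type I receptor, had 9.7, 9.76, 16.1 and 10.9 CPM in Nifedipine libraries, against 7.44, 5.39 and 6.19 CPM in Control libraries. The groups stayed apart by a small margin (log2 fold change 0.87 ± 0.22, adjusted p = 0.00272). Dtx3l, an E3 ligase that works with PARP9, rose by 0.47. Isg15 itself, the ubiquitin-like modifier, had 2.01, 0.526, 0.962 and 0.392 CPM in Nifedipine libraries, against 0.296, 0.654 and 0 CPM in Control libraries. These levels overlapped and rest on 79 and 19 reads in all, and the gene was not called (log2 fold change 1.62 ± 0.89, adjusted p = 0.143). Trim25, the E3 ligase that activates RIG-I, was not called either (log2 fold change -0.09 ± 0.06).

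Guanylate-binding proteins and immunity-related GTPases, families that act in defence against intracellular pathogens, rose in all 8 genes. Gbp2 had 60.7, 47.4, 46.5 and 43.6 CPM in Nifedipine libraries, against 9.89, 10.5 and 7.17 CPM in Control libraries (log2 fold change 2.43 ± 0.15, adjusted p = 8.12e-10). Gbp3 had 34.7, 33.4, 27.2 and 33.1 CPM in Nifedipine libraries, against 10.2, 12.1 and 10.7 CPM in Control libraries (log2 fold change 1.54 ± 0.13, adjusted p = 4.25e-08). Gbp7 stood higher in absolute level, with 283, 280, 247 and 238 CPM in Nifedipine libraries, against 147, 134 and 149 CPM in Control libraries (log2 fold change 0.87 ± 0.07, adjusted p = 3.78e-08). None of the 3 overlapped between the groups. Gbp4 was nearly silent in culture, with 110 reads in Nifedipine and 3 in Control, a ratio of 28.5 with a 95% exact counting interval of 9.51 to 141. The 3 reads were all in Control 1, and without that library Gbp4 was at least 17.5-fold higher, with the Control total set to a floor of 3 reads. Iigp1 rose by 2.62 on the log2 scale, Irgm2 by 1.07, Igtp by 0.85 and Irgm1 by 0.41.

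The IFIT and IFITM families were uneven. Ifit1, which binds viral RNA that lacks the host cap methylation, had 11.8, 7.01, 9.27 and 7.93 CPM in Nifedipine libraries, against 0.718, 0.599 and 0.936 CPM in Control libraries. It was at trace level in all Control libraries (46 reads in all), and its log2 fold change was 3.57 ± 0.32 (adjusted p = 6.28e-08). Ifit2, its neighbour on the chromosome, went the other way, with 72, 58, 53.7 and 51.8 CPM in Nifedipine libraries, against 69, 72.3 and 69.6 CPM in Control libraries. Those groups overlapped, since Nifedipine 1 reached the Control level, and the call was close to the threshold (log2 fold change -0.25 ± 0.10, adjusted p = 0.0473). Ifit3 was not called (log2 fold change 0.58 ± 0.83). Ifitm1 had 207, 190, 223 and 209 CPM in Nifedipine libraries, against 108, 114 and 107 CPM in Control libraries (log2 fold change 0.92 ± 0.07, adjusted p = 8.06e-09). Ifitm3, already the most abundant of the 43 by RPKM, had 574, 455, 522 and 586 CPM in Nifedipine libraries, against 439, 454 and 427 CPM in Control libraries. Nifedipine 2 came within a few CPM of the highest Control library (log2 fold change 0.28 ± 0.07, adjusted p = 0.00398). Ifitm2 was not called (log2 fold change 0.09 ± 0.09).

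All 9 other effectors rose, and so did Parp9 (by 0.56) and Parp14 (by 0.64), ADP-ribosyltransferase family members. Ifi44 had 56.9, 32.6, 27.4 and 40.7 CPM in Nifedipine libraries, against 4.56, 6.26 and 5.35 CPM in Control libraries (log2 fold change 2.88 ± 0.22, adjusted p = 8.54e-09). Its Nifedipine libraries were spread widely but all lay above the Control libraries. Rtp4, a chaperone-like protein, rose by 2.28, Rsad2, which encodes the antiviral enzyme viperin, by 1.93, Ifi27 by 1.88, Xaf1 by 1.26 and Isg20, an RNA exonuclease, by 1.03. Smaller rises were those of Ifi35 (0.46), Bst2, which tethers virions to the cell (0.38), and Lgals3bp, a secreted galectin ligand (0.30).

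Besides Ifit2, the other member that fell with nifedipine was Eif2ak2, which encodes PKR, the kinase that stops translation on double-stranded RNA. It had 155, 160, 135 and 133 CPM in Nifedipine libraries, against 187, 189 and 165 CPM in Control libraries, without overlap (log2 fold change -0.31 ± 0.08, adjusted p = 0.00335). Of the 6 genes that fell or were not called, Eif2ak2, Isg15, Ifit3 and Ifitm2 have the response element in their window, Trim25 has the shorter form, and Ifit2 has neither but has the gamma-activated site.

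Of the 39 calls, 35 of the rises and the fall of Eif2ak2 were made under every alternative that tested the gene. These numbered 18, or 17 for Zbp1, Irf7, Ifit1 and Gbp4, which a 10 CPM filter removes. Ifih1 and Bst2 were each lost in 7 of the 18 and Ifit2 in 11. The monocyte and macrophage list moved with the genes. It summed to 213 to 235 CPM in Nifedipine and 63.8 to 77.5 CPM in Control, 3 of its 5 tested genes rose (Csf1r, Itgam and Lyz2) and none fell. Nearly all of that sum was Lyz2 (216 ± 10.1 CPM in Nifedipine and 67.5 ± 7.89 CPM in Control; SD, n = 4 and 3), and C1qa, C1qb, C1qc and Ly6c2 were at 0 reads in both groups. Plasmacytoid dendritic markers, a list that holds Bst2 itself, summed to 297 to 346 CPM in Nifedipine and 274 to 288 CPM in Control, nearly all from Tcf4, with Klk1 at 0 in Nifedipine and Cox6a2 at 0 in Control. Erythroid markers summed to 371 to 435 CPM in Nifedipine and 522 to 549 CPM in Control, with 4 of 5 tested genes falling, and megakaryocyte markers to 374 to 465 CPM in Nifedipine and 531 to 693 CPM in Control, with 4 of 6 falling. Of the HSC list, 10 of 12 genes rose and 1 fell. Among those rises was Ly6a, which is also in the second list of interferon-stimulated genes below. These marker counts stand beside 25.8% of all tested genes called higher and 24.2% called lower. The part of the marker shifts in the rises of the 43 genes was not tested.

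**Figure D2:**
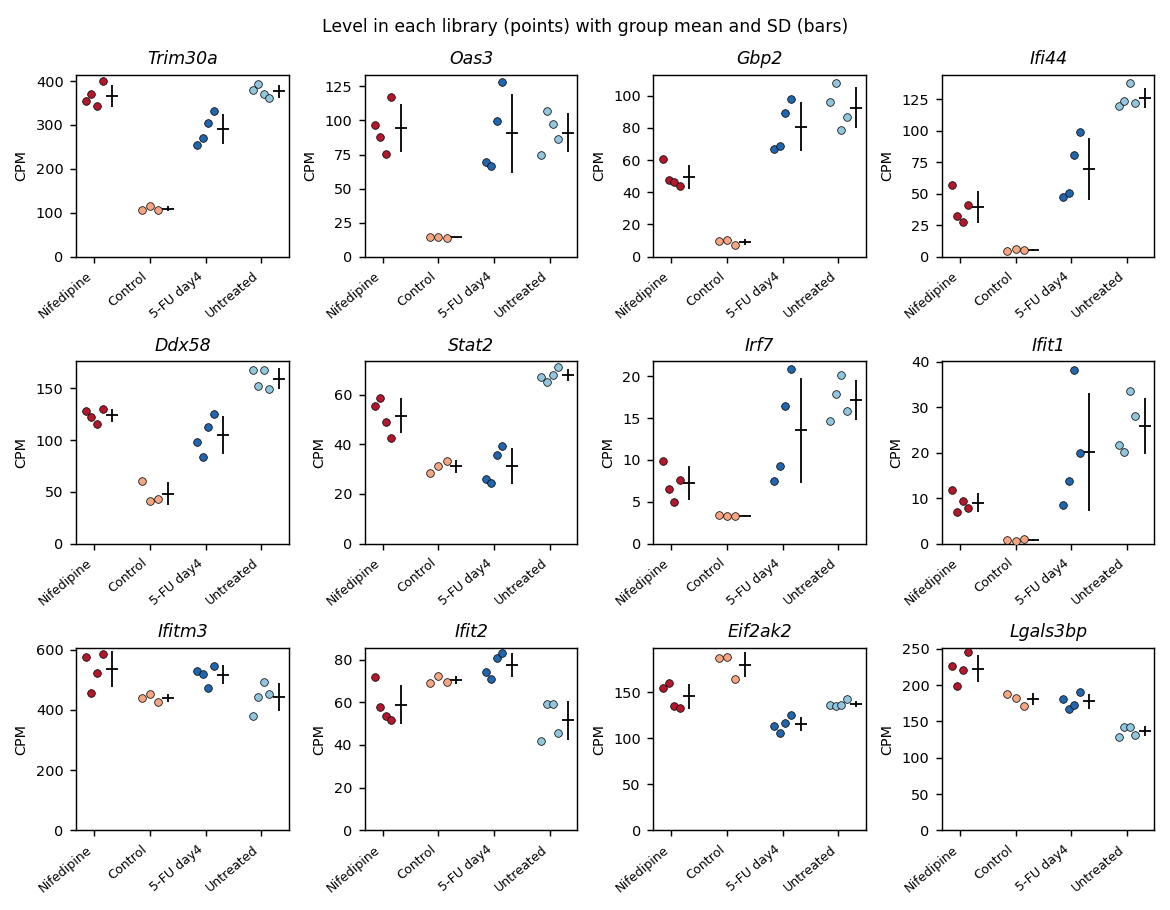
CPM of 12 of the genes in each library (points, y axes from 0), by group on the x axis, with the group mean and SD as a bar beside the points. Trim30a, Oas3, Gbp2 and Ifi44 lie far higher in the 4 Nifedipine libraries than in the 3 Control libraries, Ifit2 and Eif2ak2 do not, and Stat2 and Ifi44 lie lower in 5-FU day4 than in Untreated.

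Upstream of these genes, the signalling layer moved with nifedipine by smaller amounts. Counts in its lists stand beside 25.8% of all tested genes called higher and 24.2% called lower. Of 21 interferon ligand genes, 16 had 0 reads in all 15 libraries. The remaining 5 held 109 reads in Nifedipine and 84 in Control together, most of them on Ifnk, which was not called. Among 5 tested receptor genes, 4 rose, including the type I receptor chains Ifnar1 (log2 fold change 0.42 ± 0.07) and Ifnar2 (0.30 ± 0.09) and the gamma receptor chain Ifngr1 (0.56 ± 0.10). Of the 4 reported genes of the JAK-STAT list, Jak1 rose by 0.30, Stat3 fell by 0.18, and Jak2 and Tyk2 were not called.

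Of 13 tested sensors and adaptors outside the 45 genes, 7 rose and 3 fell with nifedipine. Over all tested genes, 25.8% were called higher and 24.2% lower. The DNA sensor Aim2 rose by 0.87 and the antibody receptor Trim21 by 0.92, while the adaptors Myd88 and Traf3, used by Toll-like receptors, fell by 0.84 and 0.51. Of 5 further IRF genes reported, 1 rose, Irf2 (0.37 ± 0.08), a repressor at many IRF1 sites. Genes that restrain the pathway had 4 rises and 4 falls of 18, near the shares of 25.8% and 24.2% over all genes. They were led by Irf2bp2 (0.79 ± 0.07) and Pias1 (0.42 ± 0.07) upward. Downward they were led by the phosphatase Ptpn11 (-0.46 ± 0.06) and the RNase H2 subunit Rnaseh2b (-0.77 ± 0.11). A second list of 67 interferon-stimulated genes, of which 56 were tested, had 44 rises and 2 falls and a median log2 fold change of 0.78. Like the 45 genes, it was chosen with earlier results of these data known. Its smallest p-values belonged to Trim30d (2.28 ± 0.09), Trim12c (1.47 ± 0.08), Trim34a (1.71 ± 0.10) and Ly6a (2.15 ± 0.14), the gene of the stem cell surface marker Sca-1. Gbp6 had 428 reads in Nifedipine and 0 in Control, at least 111-fold higher with the same floor, and at least 68.2-fold higher without Control 1.

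**Figure D3:**
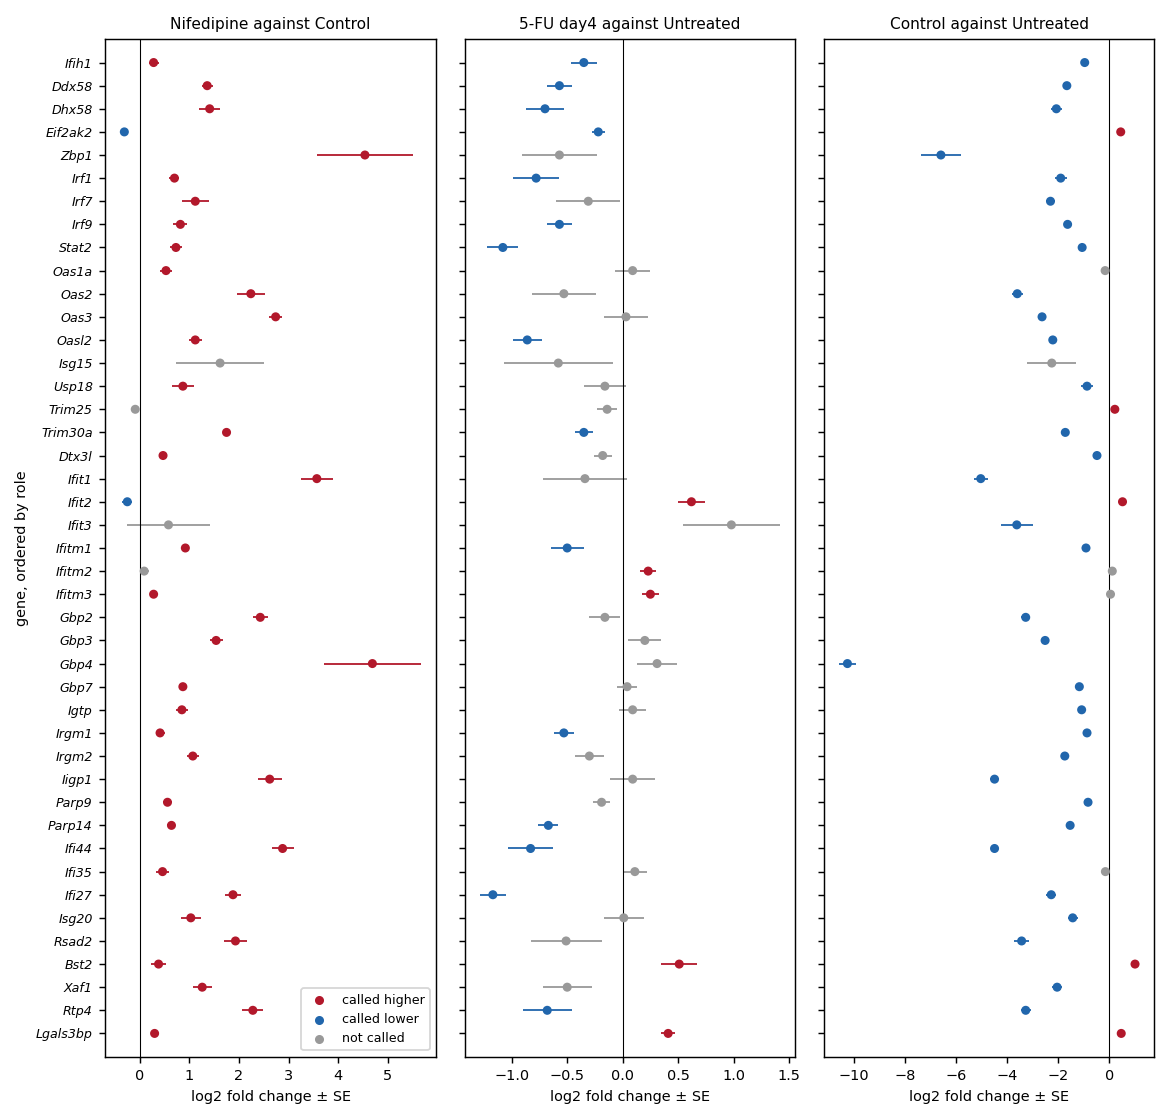
Log2 fold change with its standard error for the 43 genes, ordered by role as in the heat map, in the 3 comparisons (the x axes differ in range). Red points were called higher, blue lower and grey not called; with nifedipine 37 are red, after 5-FU 5 are red and 15 blue, and in Control against Untreated 5 are red and 33 blue.

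In vivo, 4 days after 5-fluorouracil, the genes did not move as 1 group. Of the 43, 5 rose and 15 fell, beside 26.7% of all 13384 tested genes called higher and 23.8% called lower, and 23 were not called. The falls were 34.9% of the 43. The median log2 fold change was -0.30, against -0.02 over all genes. No rise reached 1 on the log2 scale, beside 5.6% of all genes, and 2 falls did (Stat2 and Ifi27), beside 6.15%. Groups did not overlap in 3 genes that were higher and 15 that were lower, beside 24.1% and 23.3% of all genes.

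Among sensors 4 of 5 genes fell, among transcription factors 3 of 4, and the other 8 falls lay in other roles. Ddx58 had 98, 83.7, 113 and 125 CPM in 5-FU day4 libraries, against 168, 152, 168 and 149 CPM in Untreated libraries (log2 fold change -0.57 ± 0.11, adjusted p = 0.00138). Stat2 had 25.9, 24.3, 35.5 and 39.4 CPM in 5-FU day4 libraries, against 67, 65.2, 67.8 and 71 CPM in Untreated libraries. Its Untreated libraries were tight and all lay well above the 5-FU day4 libraries (log2 fold change -1.08 ± 0.14, adjusted p = 0.000135). Irf9 had 46.8, 51.3, 62.4 and 64.2 CPM in 5-FU day4 libraries, against 89.6, 77, 80.8 and 91.6 CPM in Untreated libraries (log2 fold change -0.57 ± 0.11, adjusted p = 0.00138). Further falls were those of Dhx58 (-0.70), Ifih1 (-0.35), Eif2ak2 (-0.22) and Irf1 (-0.78). The size of the Irf1 fall leaned on Untreated 4, at 229 CPM, against 116, 123 and 136 CPM in the other Untreated libraries. Its 5-FU day4 libraries reached 112 CPM. When 1 library was left out, its log2 fold change lay between -0.92 and -0.51. The groups of Ifih1 overlapped, and its call was lost in 9 of 20 alternatives, among them 5 of the 8 that left out 1 library. Irf7 was spread widely among its 5-FU day4 libraries, with 7.52, 9.29, 16.4 and 20.9 CPM, against 14.6, 17.9, 20.1 and 15.9 CPM in Untreated libraries, and was not called (log2 fold change -0.31 ± 0.29, adjusted p = 0.397).

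Among the effectors, Ifi27, which encodes a mitochondrial and nuclear membrane protein, had the smallest p. It had 15.5, 15.9, 15.7 and 17.1 CPM in 5-FU day4 libraries, against 41.1, 39.8, 36.9 and 29.4 CPM in Untreated libraries (log2 fold change -1.17 ± 0.12, adjusted p = 2.62e-05). Parp14 had 131, 142, 148 and 181 CPM in 5-FU day4 libraries, against 251, 243, 233 and 252 CPM in Untreated libraries (log2 fold change -0.67 ± 0.09, adjusted p = 0.000147). Oasl2 had 55.5, 56.5, 73.6 and 87.6 CPM in 5-FU day4 libraries, against 127, 126, 132 and 120 CPM in Untreated libraries (log2 fold change -0.86 ± 0.13, adjusted p = 0.000344). In these genes no 5-FU day4 library reached the Untreated range. Irgm1, the regulator of the immunity-related GTPases, had 92.6, 81, 101 and 106 CPM in 5-FU day4 libraries, against 133, 125, 144 and 158 CPM in Untreated libraries (log2 fold change -0.53 ± 0.09, adjusted p = 0.000892). Trim30a had 255, 270, 305 and 331 CPM in 5-FU day4 libraries, against 379, 394, 371 and 361 CPM in Untreated libraries (log2 fold change -0.35 ± 0.08, adjusted p = 0.00357). Ifi44 fell by 0.83, Rtp4 by 0.68 and Ifitm1 by 0.50 on the log2 scale.

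The 5 genes that rose after 5-FU did so by little. Lgals3bp had 181, 167, 173 and 190 CPM in 5-FU day4 libraries, against 129, 143, 142 and 132 CPM in Untreated libraries (log2 fold change 0.41 ± 0.06, adjusted p = 0.000268). Ifit2 had 74, 71.1, 80.9 and 83.2 CPM in 5-FU day4 libraries, against 41.8, 59.4, 59.2 and 45.5 CPM in Untreated libraries (log2 fold change 0.62 ± 0.12, adjusted p = 0.00162). Bst2 had 11.6, 12.8, 14.4 and 15 CPM in 5-FU day4 libraries, against 7.47, 11.2, 9.56 and 10.5 CPM in Untreated libraries (log2 fold change 0.51 ± 0.16, adjusted p = 0.0243). In these 3 genes the groups stayed apart. Ifitm3 had 529, 520, 472 and 547 CPM in 5-FU day4 libraries, against 380, 444, 492 and 452 CPM in Untreated libraries, with an overlap (log2 fold change 0.25 ± 0.08, adjusted p = 0.0183), and Ifitm2 rose by 0.23. With a correction for exon length Ifitm3 and Ifitm2 turned to -0.15 and -0.19. Of the 20 calls after 5-FU, 12 were made under all 20 alternatives. Besides Ifih1, calls were lost for Bst2 in 6 of them, Ifitm2 in 4, Ifitm3 and Rtp4 in 3 each, Eif2ak2 in 2 and Trim30a and Ifitm1 in 1 each.

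No guanylate-binding protein gene was called after 5-FU. Their log2 fold changes ran from -0.16 (Gbp2) to 0.31 (Gbp4), and those of Oas1a, Oas2 and Oas3 from -0.53 to 0.09. Ifit1 had 8.57, 13.8, 38.2 and 20 CPM in 5-FU day4 libraries, against 21.7, 20.1, 33.6 and 28 CPM in Untreated libraries. A spread that wide within the 5-FU day4 group left it uncalled (log2 fold change -0.34 ± 0.38, adjusted p = 0.484). Usp18 had 7.9, 10.8, 11.8 and 12.1 CPM in 5-FU day4 libraries, against 9.87, 12.2, 15.6 and 10.9 CPM in Untreated libraries (log2 fold change -0.16 ± 0.19, adjusted p = 0.51). Isg15 had 0.884, 1.09, 1.4 and 0.761 CPM in 5-FU day4 libraries, against 2.29, 2.24, 1.32 and 0.585 CPM in Untreated libraries, 63 and 88 reads in all (log2 fold change -0.58 ± 0.49, adjusted p = 0.342). The 23 genes that were not called ran from -0.58 (Isg15) to 0.98 (Ifit3) on the log2 scale.

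The balance of rises and falls after 5-FU depended on the scaling. With the read total behind the deposited RPKM values as library size, 10 of the 43 rose and 10 fell, while all genes split into 5148 rises and 1839 falls in place of 3580 and 3185. With a correction for exon length, 2 rose and 14 fell. Without Untreated 3 and 5-FU day4 4 together, 4 rose and 20 fell. By marker sums of other cells Untreated 3 was not set apart, at 157 CPM on erythroid and 267 CPM on endothelial and stromal genes. Monocyte and macrophage markers summed to 162 to 179 CPM in 5-FU day4 and 149 to 323 CPM in Untreated, with 1 of 9 tested genes falling (Lyz2) and none rising, and none of the 12 was at 0 reads. The endothelial and stromal list, at 191 to 552 CPM in 5-FU day4 and 267 to 1816 CPM in Untreated, had 5 falls among 10 tested genes. Of 12 HSC markers, 8 fell and 1 rose. Over all genes, 26.7% were called higher and 23.8% lower. The part of these markers in the falls of the 43 genes was not tested.

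Counts in the signalling layer after 5-FU stand beside 26.7% of all tested genes called higher and 23.8% called lower. The 4 genes of the JAK-STAT list that are reported fell, namely Jak2 (-0.49 ± 0.06), Stat3 (-0.48 ± 0.07), Jak1 (-0.24 ± 0.04) and Tyk2 (-0.46 ± 0.10). Of 5 tested receptor genes, Ifnar1 (-0.35 ± 0.06) and Il10rb (-0.73 ± 0.10) fell and Ifngr2 (0.49 ± 0.16) rose, while Ifnar2 (-0.08 ± 0.06) and Ifngr1 (-0.16 ± 0.07) were not called. Irf2 fell by 0.55 on the log2 scale. Among 13 tested sensors and adaptors, 2 rose and 5 fell, with the kinase gene Ikbke at -1.11 ± 0.11 and Mb21d1, which encodes the DNA sensor cGAS, at 0.98 ± 0.14. Genes that restrain the pathway had 3 rises and 5 falls of 18, among them Rnaseh2b (1.36 ± 0.17) and Socs3 (-1.59 ± 0.36). In the second list of interferon-stimulated genes, 7 rose and 26 fell of 61 tested, at a median of -0.22, with Trim12a at -1.24 ± 0.10, Shisa5 at -0.85 ± 0.07 and Slfn9 at 2.08 ± 0.20.

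**Figure D4:**
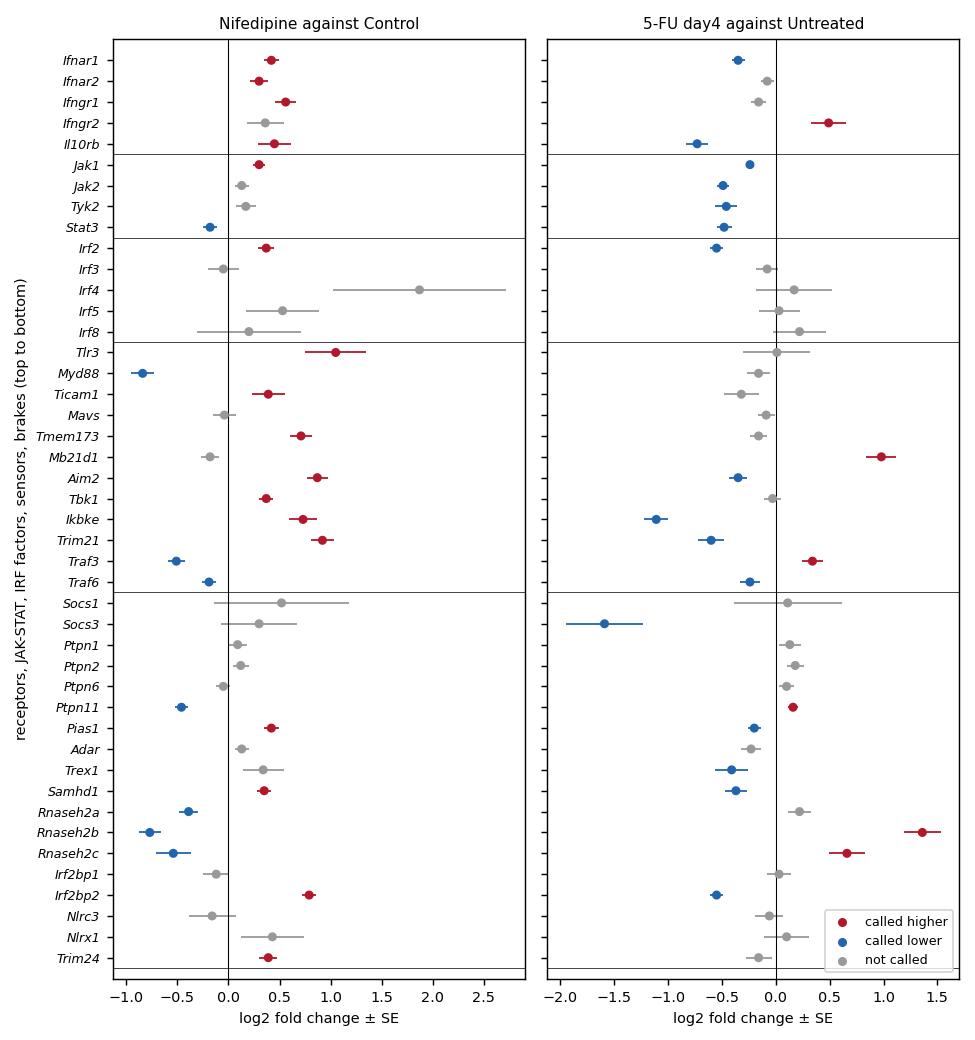
Log2 fold change with its standard error for 44 receptor, JAK-STAT, IRF, sensor and restraining genes tested in both comparisons (blocks from top to bottom, x axes of different range). Red was called higher, blue lower and grey not called; Ifnar1 is red at 0.42 with nifedipine and blue at -0.35 after 5-FU.

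The cultured Control cells held the lowest levels of most genes. This set of libraries differs from Untreated in culture and in experiment, which cannot be told apart, and it is also the base of the nifedipine comparison, so the values of both are given side by side without a test of their likeness. Of the 43 genes, 33 fell in Control against Untreated and 5 rose, beside 36.1% of all 13520 tested genes called lower and 35.8% called higher. In 27 genes the fall was at least 1 on the log2 scale, beside 22.3% of all genes. Groups did not overlap in 33 genes that were lower and 4 that were higher, beside 37.4% and 34.6% of all genes. The median log2 fold change was -1.67, against -0.05 over all genes.

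All 8 guanylate-binding protein and immunity-related GTPase genes fell. Gbp4 had 3 reads in Control and 4075 in Untreated, a ratio of 0.000691 (95% exact counting interval 0.000142 to 0.00202). Without Control 1 it was at least 888-fold lower. Iigp1 had 50.2, 24.8, 25 and 27.8 CPM in Nifedipine libraries and 4.56, 6.15 and 4.99 CPM in Control libraries, against 118, 116, 106 and 150 CPM in Untreated libraries. The log2 fold change of Control against Untreated was -4.50 ± 0.17 (adjusted p = 3.32e-08), and the Nifedipine libraries lay between those ranges. Gbp2 had 96.3, 108, 78.6 and 86.9 CPM and Gbp3 61.8, 78, 59.9 and 62.5 CPM in Untreated libraries, which put their Control libraries at -3.28 ± 0.17 and -2.52 ± 0.13 on the log2 scale. Gbp7 fell by 1.18, Irgm2 by 1.75, Igtp by 1.09 and Irgm1 by 0.88.

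Ifi44 had 120, 124, 138 and 122 CPM in Untreated libraries, and the Control libraries quoted above lay far beneath them (log2 fold change -4.50 ± 0.12, adjusted p = 1.06e-08). Oas3 had 74.5, 107, 97.1 and 86.1 CPM in Untreated libraries (log2 fold change of Control against Untreated -2.64 ± 0.13, adjusted p = 1.57e-07). In that gene the Nifedipine libraries, at 75.4 to 117 CPM, overlapped the Untreated libraries. Trim30a did likewise, with 343 to 400 CPM in Nifedipine and 361 to 394 CPM in Untreated, and Control lay at -1.73 ± 0.06 against Untreated. Oasl2 had 25, 25.7 and 27.7 CPM in Control libraries, against 127, 126, 132 and 120 CPM in Untreated libraries (log2 fold change -2.22 ± 0.07, adjusted p = 2.23e-08). Ifit1 fell by 5.04, Oas2 by 3.61, Rsad2 by 3.44 and Irf7 by 2.31. Stat2 fell by 1.07 and Usp18 by 0.88. The remaining falls were those of Zbp1 (-6.60; -9.94 without Control 2 and -5.97 without Control 1), Ifit3 (-3.63; -4.24 without Control 1), Rtp4 (-3.28), Ifi27 (-2.28), Dhx58 (-2.08), Xaf1 (-2.05), Irf1 (-1.91), Ddx58 (-1.67), Irf9 (-1.64), Parp14 (-1.54), Isg20 (-1.44), Ifih1 (-0.97), Ifitm1 (-0.92) and Parp9 (-0.84), all on the log2 scale.

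The genes that rose in Control against Untreated were Bst2 (1.00 ± 0.17), Ifit2 (0.51 ± 0.13), Lgals3bp (0.46 ± 0.06), Eif2ak2 (0.44 ± 0.06) and Trim25 (0.21 ± 0.07). Bst2 had 19.1, 17.4 and 19.4 CPM in Control libraries, against 7.47, 11.2, 9.56 and 10.5 CPM in Untreated libraries. Lgals3bp had 188, 183 and 172 CPM in Control libraries, against 129, 143, 142 and 132 CPM in Untreated libraries. Eif2ak2 had 187, 189 and 165 CPM in Control libraries, against 136, 135, 136 and 143 CPM in Untreated libraries. In these genes and in Ifit2 every Control library lay above every Untreated library. Trim25 was lost under 6 of 18 alternatives and the fall of Dtx3l (-0.49 ± 0.07) under 2, and the remaining 36 calls were made under every alternative that tested the gene (18, or 17 for Zbp1 and Ifit3). Oas1a, Isg15, Ifitm2, Ifitm3 and Ifi35 were not called. Ifitm3 had almost the same level in both groups, at 440 ± 13.6 CPM in Control and 442 ± 46.2 CPM in Untreated (SD, n = 3 and 4).

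Around them, all 5 tested receptor genes and the 5 further IRF genes reported fell in Control. Over all tested genes, 36.1% were called lower and 35.8% higher. With a correction for exon length Ifnar1 and Ifnar2 turned to 0.04 and 0.13, and with length and GC Irf3 turned to 0.01. The second list of interferon-stimulated genes had 4 rises and 48 falls of 61 tested. Gbp6 had 0 reads in Control and 5147 in Untreated, at least 1828-fold lower, and at least 1122-fold lower without Control 1. Myd88 rose by 1.14 and Rnaseh2b by 1.70. With a length correction the median of all genes moved to 0.33. All genes then split into 6515 rises and 3275 falls in place of 4842 and 4887, while 35 of the 43 genes fell and 5 rose. That correction also shifts the level of each library, and the part of exon length itself was not tested. Monocyte and macrophage markers summed to 63.8 to 77.5 CPM in Control and 149 to 323 CPM in Untreated, with 8 of 9 tested genes falling. In the endothelial and stromal list 9 of 10 genes fell, and in the HSC list 9 of 12. Ly6a, which is also in the second list of interferon-stimulated genes, was among the HSC markers that fell. The part of these markers in the falls of the 43 genes was not tested.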

How the data were processed

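RNA was sequenced from 15 libraries, grouped by their labels. Per the labels' protocols, the Nextera XT kit used does not record the strand of a transcript. Aligner and counter are not stated here, and the submitters' processing notes name mm10 as the build. The deposited tables give whole-number exon read counts and RPKM values per feature, per the file headers. From these, copies of a gene on scaffolds were added up (48737 features, 46123 genes). Comparisons used only the libraries of their 2 groups, in edgeR 4.0.16 under R 4.3.3 (TMM, default filterByExpr, quasi-likelihood F test without covariates, Benjamini-Hochberg adjustment over all genes tested). Calls needed an adjusted p of 0.05 or less. Between libraries, the common biological coefficient of variation came to 0.13 for nifedipine, 0.202 for 5-FU and 0.213 for Control against Untreated. Exon lengths and the RPKM read total were recovered from counts and deposited RPKM values. Counting intervals are exact at 95% and cover counting error only, and a floor is 3 reads over a group. The fit was tested on simulated data. Alternatives were RLE factors, DESeq2 1.42.0, limma-voom 3.58.1, other filters and scalings, length and GC corrections, a replicate block, and leaving out libraries.

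The members and gene lists were chosen with earlier results of these data known. Genes given per sample are, in each comparison and direction, the 8 called genes without overlap that have the smallest p, and always Isg15, Ifit1, Irf7, Stat2, Ifitm3 and Usp18. Of the pathway lists, the 4 called genes with the smallest p could be named, and Ifnar1, Ifnar2, Ifngr1 and Irf2 always. Some genes of those lists are not reported here. Genes named to spell out a small count or a range, and Gbp6, Iigp1, Ccl5, Cxcl9, Cxcl10 and Gbp4 in culture, were chosen after their values were seen.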

Additional observations from a re-analysis of the deposited data

Results flagged for a closer look

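In groups of 4 libraries, 129 gene-by-group tests asked whether the highest or lowest library stood apart from the rest by Dixon's criterion, and 5 did, where chance alone gives about 1 in 20. Iigp1 was 50.2 CPM in Nifedipine 1, against 24.8 to 27.8 CPM in the other Nifedipine libraries. Irf9 was 59.3 CPM in the same library, against 40.9 to 43.4 CPM in the others. Irf1 was 112 CPM in 5-FU day4 4, against 74.8 to 80.4 CPM in its group. Gbp3 was 78 CPM in Untreated 2, against 59.9 to 62.5 CPM in its group. Eif2ak2 was 143 CPM in Untreated 4, against 135 to 136 CPM in its group.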

How the results depend on the processing

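The values of Isg15, Zbp1, Ifit3 and, in culture, Gbp4 rest on few reads. With nifedipine, 35 to 37 genes rose and 1 or 2 fell when each library was left out in turn, and 1 fell with the RPKM read total, a 10 CPM filter, features as deposited, all 15 libraries in 1 fit or the replicate block. Length correction split all genes there into 2518 rises and 4025 falls, with 36 rises and 3 falls among the 43. After 5-FU, the rises numbered 10 with the RPKM read total (which moved the median of all genes to 0.17 there and 0.19 in Control against Untreated, and left 1839 falls over all genes) and 2 with length correction, alone or with GC (a correction added after seeing the data). Leaving out 1 library gave 3 to 6 rises, 3 of them without Untreated 1, and 13 to 19 falls. Signs turned after 5-FU with length correction, and then with GC added, for Ifitm2 (-0.19, -0.14) and Ifitm3 (-0.15, -0.11), with the RPKM total for Usp18 (0.03), Ifnar2 (0.12; 0.02 with length and GC) and Ifngr1 (0.04). In Control against Untreated they turned with length correction, and then with GC added, for Jak1 (0.39, 0.31; 0.05 with the RPKM total), Jak2 (0.63, 0.43), Ifnar1 (0.04, 0.04), Ifnar2 (0.13, 0.13), Dtx3l (0.07, length only) and Ifitm3 (-0.27, -0.23; -0.09 with the 10 CPM filter, -0.01 in 1 fit of all libraries, -0.03 to 0.09 when 1 library was left out, the lowest without Untreated 1). Signs also turned under some alternative for 12 of the genes not called after 5-FU, Usp18 among them (main values -0.19 to 0.11, turned values -0.22 to 0.06: Dtx3l, Gbp2, Gbp7, Ifi35, Igtp, Iigp1, Isg20, Oas1a, Oas3, Parp9 and Trim25), and for Oas1a, Ifi35 and Ifitm2 in Control against Untreated (0.06, 0.07 and down to -0.22). The cause of these changes was not tested. The replicate numbers were not taken to pair libraries, since the labels do not say what same-numbered libraries share. Deviations of same-numbered libraries correlated at 0.02 to 0.16 with nifedipine, where other pairs gave -0.12 to 0.08. After 5-FU they correlated at -0.11 to 0.16 (other pairs -0.42 to 0.36), and in Control against Untreated at -0.02 to 0.03 (other pairs -0.05 to 0.05). With nifedipine, numbers 1 and 2 (0.14 and 0.16) lay above every other pair, so these values do not decide whether libraries are paired. With the replicate block, 36 rose and 1 fell with nifedipine, 6 rose and 15 fell after 5-FU, and 4 rose and 34 fell in Control against Untreated.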

Other observations

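The 4 libraries taken after 5-FU differed from each other across many of the 43 genes. 5-FU day4 4 was the highest of its group in 35 genes and 5-FU day4 1 the lowest in 21, and their median levels over the 43 were 87.6 and 56.9 CPM. 5-FU day4 4 was also the library with the largest endothelial and stromal sum of its group, and the part of that in the levels was not tested. Among the cultured libraries, Nifedipine 1 was the highest of its group in 23 genes, with a median of 59.3 CPM, against 43.6 to 47.4 CPM in the other Nifedipine libraries. Control libraries had medians of 22.7 to 26 CPM and Untreated libraries of 72.7 to 81.5 CPM.

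Transcripts of interferon genes themselves were close to absent in all 4 groups, at 109 reads in Nifedipine, 84 in Control, 104 in 5-FU day4 and 94 in Untreated over the 21 ligand genes. Of these reads, 88, 76, 84 and 85 were on Ifnk, in the same order of groups. Among chemokine genes known to answer interferon, Ccl5 had 160 reads in Nifedipine and 0 in Control, but 154 of the 160 were in Nifedipine 1 and none in Nifedipine 2. Its lower bound, with the Control total set to 3 reads, was 41.5-fold higher with all libraries and 2.14-fold higher without Nifedipine 1. Cxcl10 had 36 reads in Nifedipine and 1 in Control, a ratio of 28 with a 95% exact counting interval of 4.72 to 1137. Without Control 1, which held that read, Cxcl10 was at least 5.73-fold higher. Cxcl9, also such a gene, went the other way, with 2 reads in Nifedipine and 9 in Control. Its ratio was 0.173 with a 95% exact counting interval of 0.0182 to 0.836. Most of its Control reads were in Control 3 (0.416 CPM, against 0.0545 CPM in Control 2 and 0 in Control 1).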
